A study of Glycine max with 12 samples.

Results

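The interaction of cadmium and a bacterium in soybean roots was examined gene by gene. It asks whether adding Oceanobacillus picturae (OP) changed a transcript by another factor in roots treated with cadmium (Cd) than in roots without it. The interaction was the log2 fold change of Cd+OP over Cd minus the log2 fold change of control+OP over control, and it used all 12 libraries. Genes entered if they averaged 1 FPKM or more over the 12 libraries (fragments per kilobase, scaled to library size), which held for 30340 of the 49128 genes in the deposited table. The 4 groups were roots with cadmium and OP (Cd+OP), roots with cadmium alone (Cd), roots with OP alone (control+OP) and control roots with neither, with 3 libraries each, all of the soybean cultivar Williams 82. The labels carry a cadmium treatment of 70 mg/L on every sample, controls included, and give no exposure time, plant age or amount of OP. Nothing in them says that the 3 libraries per group are separate plants, so p-values measure only the spread between these libraries, which may be technical. Because whole roots were sampled, fewer cells of a type and less RNA per cell cannot be told apart.

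Cadmium enters plant roots through carriers of iron, zinc and manganese, binds to thiols, and is held in the vacuole as complexes with thiol peptides made from glutathione. Legume roots form nodules with rhizobia, in which leghaemoglobins carry oxygen and nodulins sit in the peribacteroid membrane that surrounds the bacteria. Roots short of oxygen pass pyruvate to pyruvate decarboxylase and alcohol dehydrogenase, and wounded or attacked roots make jasmonate from fatty acids by way of lipoxygenases.

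An interaction of 0 means that OP multiplied a transcript by the same factor with and without Cd, so that its Cd+OP level is the Cd level times control+OP over control. A positive interaction means that OP raised the gene more, or lowered it less, with Cd than without it, and a negative one the reverse. By edgeR's quasi-likelihood test with Benjamini-Hochberg adjustment over the 30340 genes, at an adjusted p under 0.05, 19381 genes (63.9%) were called, 10143 positive (33.4%) and 9238 negative (30.4%). Among these, 4830 positive genes (15.9% of those tested) and 2373 negative genes (7.82%) had an interaction of at least 2-fold. The median interaction over all tested genes was 0.01 on the log2 scale and the median size was 0.51, with 1.74 at the 90th percentile and 4.09 at the 99th. The smallest called interaction was 0.10, so a call alone says little about size. The effect of OP itself was called for 21553 genes with Cd (71.0%, of which higher 36.4% and lower 34.6% of all tested) and for 18761 genes without Cd (61.8%, higher 34.6% and lower 27.2%). The libraries held 49904227 to 57693211 counts and 42224 to 43313 genes above 0, and the biological coefficient of variation was 0.0796.

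**Figure D1:**
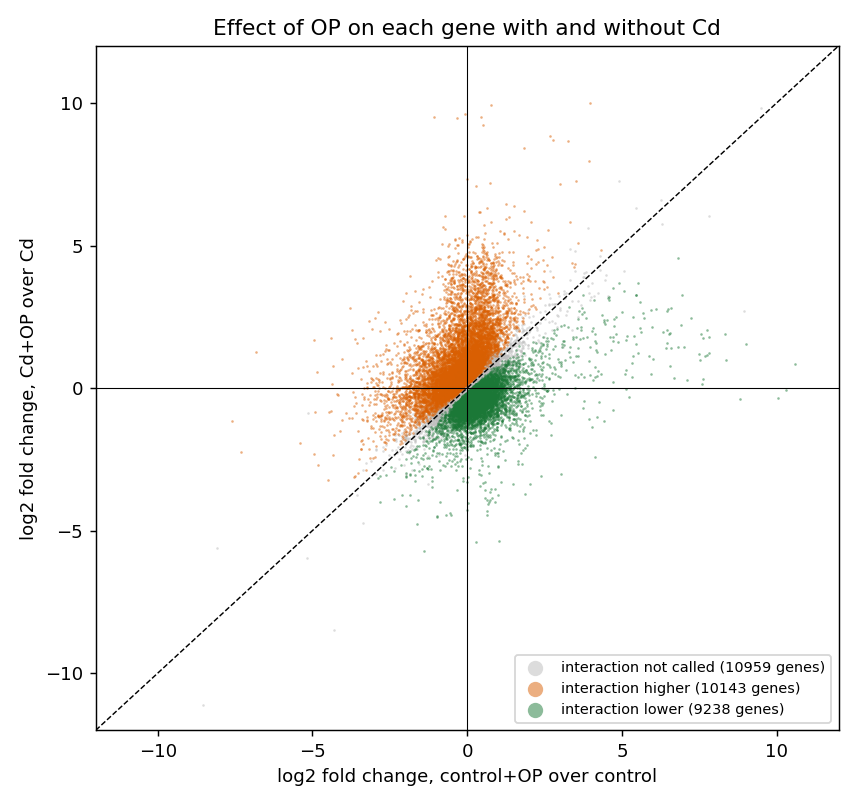
Each point is 1 of the 30340 tested genes. The horizontal axis is the log2 fold change of control+OP over control, the vertical axis is the log2 fold change of Cd+OP over Cd, and the dashed line marks equal factors. The 10143 genes with a called positive interaction lie above that line, many of them near 0 on the horizontal axis, and the 9238 genes with a called negative interaction lie below it.

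The called genes differed in which side of the comparison moved. Among the 10143 positive genes, OP raised 2794 (27.5%) with Cd while its effect without Cd was not called, and it raised 2357 (23.2%) in both settings but by a larger factor with Cd. It raised 2216 (21.8%) with Cd and lowered the same genes without Cd, and it lowered 1532 (15.1%) without Cd while its effect with Cd was not called. Among the 9238 negative genes the opposite-sign class was larger, with 2799 (30.3%) lowered by OP with Cd and raised by OP without it. A further 2733 (29.6%) were lowered with Cd and not called without it, and 1805 (19.5%) were raised without Cd and not called with it.

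**Figure D2:**
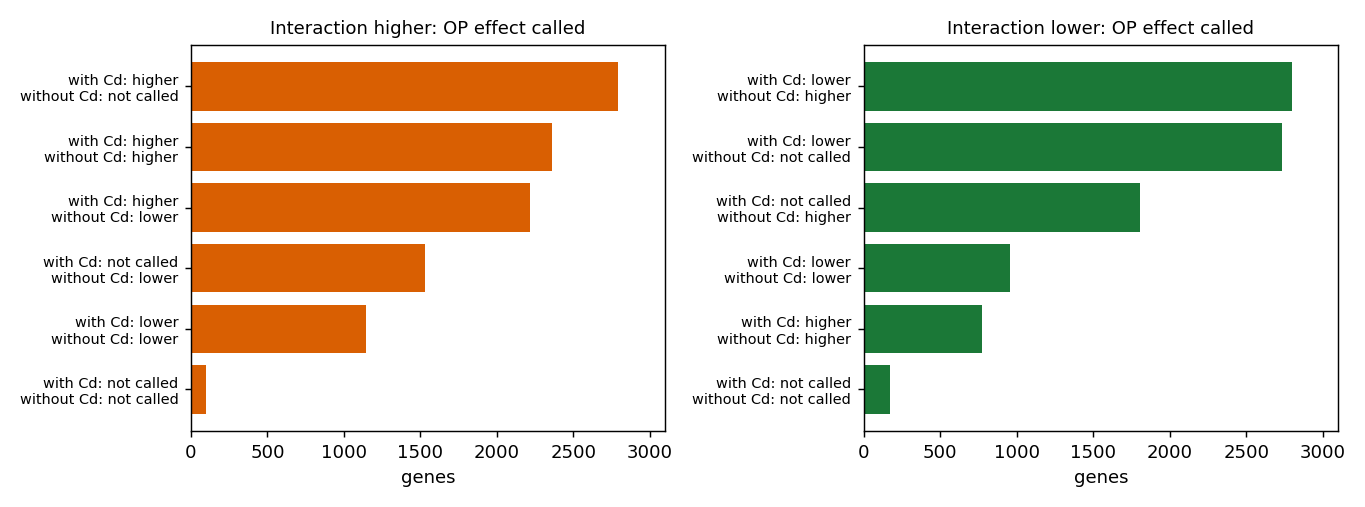
Bars count the genes with a called positive interaction (left, orange) and a called negative interaction (right, green) by the called effect of OP with Cd (Cd+OP over Cd) and without Cd (control+OP over control). The longest bars are the 2794 positive genes raised with Cd alone and the 2799 negative genes lowered with Cd and raised without it.

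One group of libraries often stood apart from the other 3 groups. Among the positive genes of at least 2-fold, all 3 Cd libraries lay below the other 9 in 3298 (68.3%), and all 3 control libraries lay above the other 9 in 1470 (30.4%). Over all tested genes these shares were 26.7% (8112 genes) for Cd below and 9.27% for control above. Among the negative genes of at least 2-fold, the Cd libraries lay above the other 9 in 1211 (51.0%), the control libraries lay below the other 9 in 883 (37.2%) and the control+OP libraries lay above the other 9 in 718 (30.3%). Over all tested genes these shares were 21.1% for Cd above, 9.85% for control below and 18.2% for control+OP above. A gene can be counted under more than 1 of these. The genes were chosen by their interaction in the same libraries. That choice favours low Cd or high control levels among positive genes. Among negative genes it favours high Cd, low control or high control+OP levels. The higher shares therefore follow in part from the choice and are a description.

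Most genes annotated to the nodule were highest in control+OP roots. Of 31 genes annotated to nodulation, the peribacteroid membrane or oxygen carriage, 28 were tested, and 21 had a negative and 4 a positive interaction, with a median of -3.34. For all tested genes the shares were 30.4% negative and 33.4% positive, and every list count below is to be read against these. The median effect of OP on the list was 1.10 on the log2 scale with Cd and 4.98 without it. In 20 of the 28 the control+OP libraries lay above the other 9, against 18.2% of all tested genes. Of the 28, 6 passed the filter of 1 FPKM through a single group, so these had to differ between groups and the counts are a description. Of all 30340 tested genes, 1609 did so. Further lists below held such genes, among others sugar transport (11 of 64), lignin and laccase (3 of 26) and metal chelation (2 of 26). The jasmonate list held 3 of 59 and the cell division list 14 of 353. The counts of these lists are also a description. GLYMA_20G024200, annotated to nodulation (chromosome 20, 2636776 to 2638588, minus strand), had 2.41, 3.28 and 3.52 FPKM in the Cd+OP libraries, 1.15, 0.615 and 2.6 FPKM in the Cd libraries, 201, 189 and 188 FPKM in the control+OP libraries and 0.0666, 0.875 and 0.812 FPKM in the control libraries. The control+OP libraries stood far above the rest, and the Cd+OP and Cd libraries overlapped. The interaction was -7.37 ± 0.47 (SE, adjusted p = 7.47e-13, edgeR), and every interaction given below with an SE alone was also called unless it is said not to be. Equal factors with and without Cd would have put Cd+OP roots at 480 FPKM.

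The 4 leghaemoglobin genes, annotated to oxygen carriage and nodulation, all had negative interactions, between -7.29 and -4.88. LGB1 (GLYMA_10G198800, chromosome 10, 42995962 to 42997094, minus strand) had 3.15, 2.63 and 2.56 FPKM in the Cd+OP libraries, 1.02, 0.495 and 1.48 FPKM in the Cd libraries, 127, 121 and 116 FPKM in the control+OP libraries and 0.982, 1.54 and 1.67 FPKM in the control libraries. The control+OP libraries stood far above the other 9, and the Cd and control libraries overlapped. Its interaction was -5.05 ± 0.31 (SE, adjusted p = 4.04e-13, edgeR). LBA (GLYMA_10G199100) had 0.569, 0.574 and 0.708 FPKM in the Cd+OP libraries, 0.249, 0.447 and 0.7 FPKM in the Cd libraries, 32.9, 33.3 and 33.6 FPKM in the control+OP libraries and 0, 0.254 and 0.237 FPKM in the control libraries. Again the control+OP libraries were high and the other 9 were at most 0.708 FPKM, and the interaction was -7.29. LBA and GLYMA_10G199000 were under 1 FPKM in the other 3 groups and passed the filter through control+OP roots alone, so their difference is a description with no test. LGB1, GLYMA_10G199000 and LBA lie beside each other on chromosome 10, and how the deposited counts divide reads between such similar genes is uncertain. GLYMA_15G045000 and GLYMA_13G328800, both annotated to the peribacteroid membrane and fluid, averaged 2.35 ± 0.122 and 2.39 ± 0.698 FPKM in Cd+OP roots and 156 ± 5.7 and 115 ± 4.82 FPKM in control+OP roots (SD, n = 3 each). Their interactions were -6.60 ± 0.56 and -5.86 ± 0.64 (SE). Of the 9 tested genes annotated to the peribacteroid membrane, 8 were negative and 1 was not called, and the negative ones include GLYMA_08G120100 and GLYMA_14G052400, which also passed the filter through control+OP roots alone.

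The 4 positive members of the nodulation list were of another kind. GLYMA_11G121800, an oxygen carrier without a nodulation annotation, averaged 330.5 ± 11.4 FPKM in Cd+OP roots, 218 ± 6.14 FPKM in Cd roots, 92 ± 7.77 FPKM in control+OP roots and 647 ± 32.5 FPKM in control roots (SD, n = 3 each), with an interaction of 3.33 ± 0.062 (SE, adjusted p = 1.31e-23, edgeR). Without Cd, OP changed it by -2.81 on the log2 scale, and with Cd by 0.53. Of the 4 tested oxygen carriers without a nodulation annotation, 3 were positive and 1 was negative, and all 4 were lower in control+OP than in control roots. The fourth positive gene was SS (GLYMA_13G114000), a sucrose synthase, which cleaves sucrose for use in the cell. It averaged 163 ± 1.45 FPKM in Cd+OP roots, 72.3 ± 1.76 FPKM in Cd roots, 189 ± 4.41 FPKM in control+OP roots and 472 ± 18.1 FPKM in control roots (SD, n = 3 each), and its interaction was 2.42 ± 0.043 (SE).

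Genes of fermentation and low oxygen mostly had positive interactions. Of 43 tested genes annotated to pyruvate decarboxylase, alcohol dehydrogenase or low oxygen, of 58 annotated, 34 had a positive and 7 a negative interaction, against 33.4% and 30.4% of all tested genes, and the median was 1.29. The median effect of OP was 0.29 with Cd and -0.50 without it. All 5 tested pyruvate decarboxylase genes, the entry to ethanol fermentation, were positive, between 0.90 and 3.97. OP changed them by -2.04 to 1.17 with Cd, with a median of 0.34, and by -2.98 to -2.47 without Cd. A positive interaction thus includes a smaller fall, and the gene given next had the highest effect with Cd. GLYMA_13G231700 (chromosome 13, 34322075 to 34326368, minus strand) had 103, 106 and 103 FPKM in the Cd+OP libraries, 45.3, 46.2 and 40.3 FPKM in the Cd libraries, 72.9, 67.7 and 68.6 FPKM in the control+OP libraries and 500, 481 and 477 FPKM in the control libraries. Control libraries were highest and Cd libraries lowest, with no overlap between any pair of groups. OP changed it by 1.17 with Cd and by -2.80 without Cd, an interaction of 3.97 ± 0.056 (SE, adjusted p = 1.19e-25, edgeR). Equal factors would have put Cd+OP roots at 6.3 FPKM, against the 104 FPKM measured.

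Zinc-dependent alcohol dehydrogenases, the family whose members turn acetaldehyde into ethanol, were positive in 15 of 16 tested genes and negative in 1. OP changed these 16 genes by -2.33 to 3.51 with Cd (median 0.88) and by -4.33 to 0.58 without Cd (median -0.1). The gene given next fell further without Cd than that median. The most abundant, GLYMA_06G122600, also annotated as a dehydrogenase of S-(hydroxymethyl)glutathione (chromosome 6, 9998469 to 10001762, plus strand), had 409, 423 and 427 FPKM in the Cd+OP libraries, 329, 314 and 287 FPKM in the Cd libraries, 420, 407 and 395 FPKM in the control+OP libraries and 1265, 1198 and 1270 FPKM in the control libraries. Control libraries were far above the other 9, Cd libraries were lowest, and Cd+OP and control+OP libraries overlapped. OP thus raised it by 0.36 with Cd and changed it by -1.61 without, an interaction of 1.97 ± 0.055 (SE, adjusted p = 3.17e-20, edgeR). GLYMA_19G213100, a transcription factor gene annotated to ethylene signalling and the response to anoxia, had 97.3, 93 and 96.5 FPKM in the Cd+OP libraries, 80.9, 73.1 and 73 FPKM in the Cd libraries, 35.7, 33.4 and 33 FPKM in the control+OP libraries and 291, 271 and 287 FPKM in the control libraries. Control+OP libraries were lowest and control libraries highest, and its interaction was 3.32 ± 0.061 (SE, adjusted p = 8.98e-24, edgeR). Cysteine dioxygenase genes annotated to the detection of hypoxia, enzymes that use oxygen to oxidise protein cysteines, were positive in 13 and negative in 4 of 19. The other negative members of the list were an alcohol dehydrogenase and the ER chaperone genes GLYMA_13G003700 (-1.60) and GLYMA_20G065900 (-2.40), named after their values were seen.

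**Figure D3:**
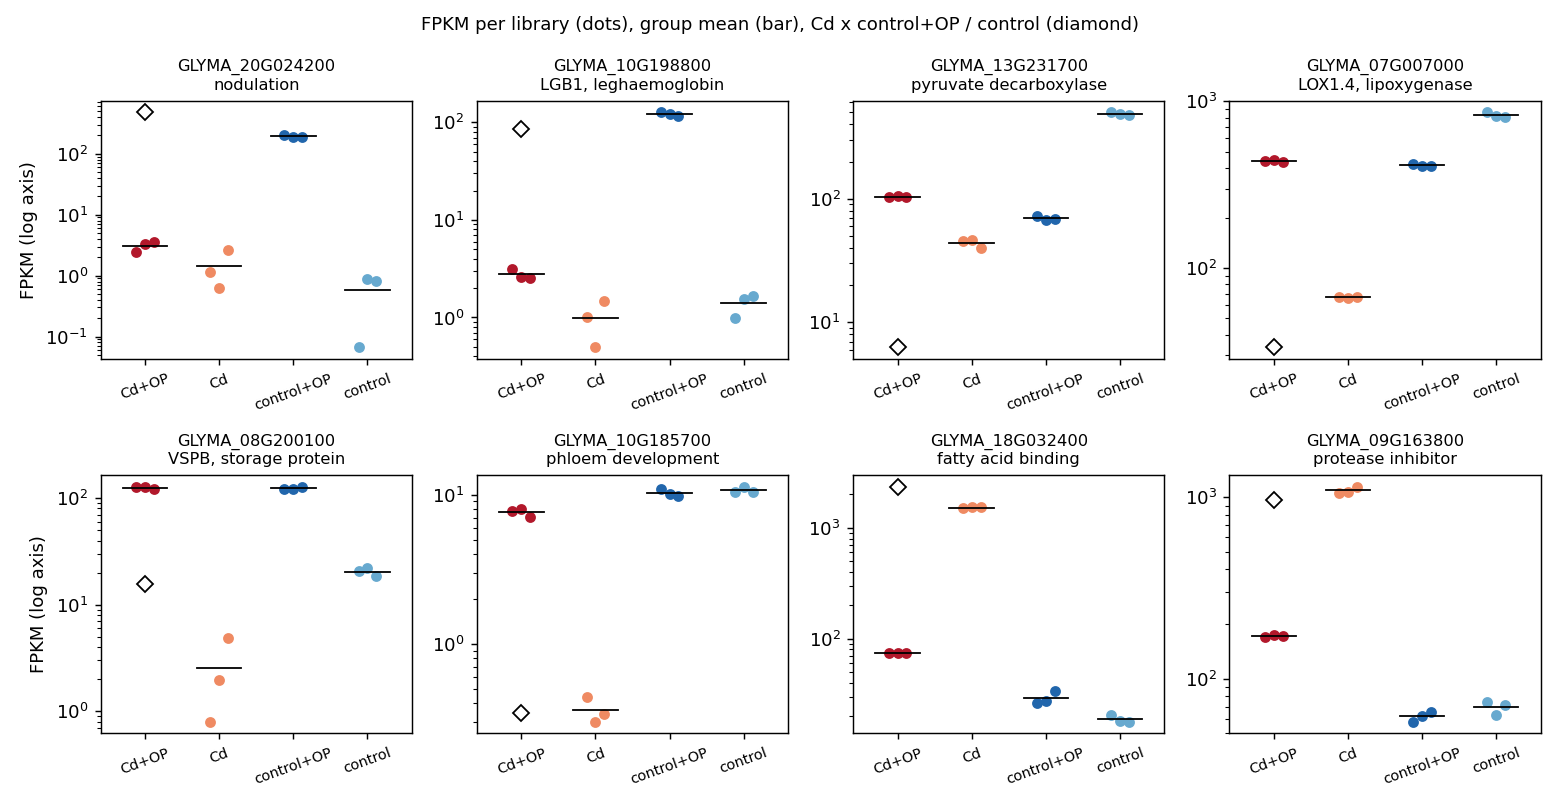
FPKM on a log axis in each library (dots) with the group mean (bar) for 8 genes, in the order Cd+OP, Cd, control+OP and control. The open diamond is the Cd+OP level that equal factors of OP would give, the Cd mean times control+OP over control. The diamond lies above the Cd+OP dots for the nodulation, LGB1, fatty acid binding and protease inhibitor genes and below them for the pyruvate decarboxylase, LOX1.4, VSPB and phloem genes.

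Lipoxygenase genes were mostly positive, and both named ones were lowest in Cd roots. Of 59 tested genes of jasmonate and oxylipin synthesis, of 84 annotated, 40 had a positive (67.8%) and 12 a negative interaction (20.3%). The median was 1.04, and the shares over all tested genes were 33.4% and 30.4%. LOX1.4 (GLYMA_07G007000, chromosome 7, 509819 to 514700, plus strand) is a lipoxygenase, an enzyme that adds oxygen to polyunsaturated fatty acids. It is annotated as a linoleate 9S-lipoxygenase, and a part in jasmonate synthesis was not tested. LOX1.4 had 437, 443 and 435 FPKM in the Cd+OP libraries, 67.4, 66.5 and 67.5 FPKM in the Cd libraries, 423, 410 and 410 FPKM in the control+OP libraries and 860, 815 and 805 FPKM in the control libraries. Cd libraries were lowest and control libraries highest, and Cd+OP libraries lay slightly above control+OP libraries with no overlap. OP changed LOX1.4 by 2.64 with Cd and by -0.99 without, and the interaction was 3.63 ± 0.039 (SE, adjusted p = 8.02e-28, edgeR). A second lipoxygenase, GLYMA_13G347700 (chromosome 13, 43773475 to 43780320, minus strand), is also annotated as a linoleate 9S-lipoxygenase. This second gene had 696, 695 and 685 FPKM in the Cd+OP libraries, 68.2, 67.3 and 74.4 FPKM in the Cd libraries, 736, 705 and 718 FPKM in the control+OP libraries and 973, 926 and 909 FPKM in the control libraries. Its Cd libraries stood far below the other 9, and Cd+OP and control+OP libraries lay close together. The interaction was 3.61 ± 0.046 (SE, adjusted p = 2.05e-26, edgeR), and equal factors would have put Cd+OP roots at 53.8 FPKM.

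Across the jasmonate and oxylipin list, 19 of 24 tested lipoxygenases were positive and 4 were negative. Of 8 allene oxide cyclases, which close the ring of the jasmonate precursor, 6 were positive. All 4 tested 12-oxophytodienoate reductases, which reduce that ring, were positive, between 1.06 and 1.59. The vegetative storage protein gene VSPB (GLYMA_08G200100), whose product stores nitrogen in soybean shoots and is induced by jasmonate there, had 127, 126 and 123 FPKM in the Cd+OP libraries, 0.798, 1.98 and 4.86 FPKM in the Cd libraries, 121, 123 and 128 FPKM in the control+OP libraries and 20.6, 21.9 and 18.4 FPKM in the control libraries. The Cd+OP and control+OP libraries overlapped at a high level, and the Cd libraries lay below the control libraries. OP raised VSPB by 5.54 with Cd and by 2.62 without, an interaction of 2.93 ± 0.26 (SE, adjusted p = 5.27e-10, edgeR). Its relative VSPA (GLYMA_07G014500) was far less abundant, at 6.48 ± 0.152 FPKM in Cd+OP roots, 0.447 ± 0.478 FPKM in Cd roots, 13.8 ± 2.19 FPKM in control+OP roots and 2.52 ± 0.468 FPKM in control roots (SD, n = 3 each). The VSPA interaction was 1.31 ± 0.41 (SE, adjusted p = 7.22e-03, edgeR), but DESeq2 did not call it (adjusted p = 0.132), and it was negative on a linear FPKM scale. The seed storage and nutrient reservoir list summed to 1077.1 to 1088 FPKM in Cd+OP, 408.9 to 429.6 FPKM in Cd, 1168.6 to 1206.1 FPKM in control+OP and 865.4 to 932.1 FPKM in control libraries. That list includes VSPA and VSPB, and the part of its other genes in these results was not tested.

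A run of fatty acid binding genes annotated to systemic acquired resistance had the reverse shape, high in Cd roots. The whole list of 37 tested genes was split, with 14 positive, 16 negative and a median of -0.12. The run of 9 tested genes on chromosome 18, singled out after their values were seen, was negative throughout, between -5.07 and -3.73. Its mean levels spanned 13.1 to 366 FPKM in Cd+OP, 197 to 2938 FPKM in Cd, 4.49 to 73.4 FPKM in control+OP and 2.42 to 36.8 FPKM in control roots. GLYMA_18G032400 (chromosome 18, 2512100 to 2512995, plus strand) had 73.6, 73.7 and 74.1 FPKM in the Cd+OP libraries, 1500, 1525 and 1541 FPKM in the Cd libraries, 26.3, 27.4 and 33.5 FPKM in the control+OP libraries and 20.6, 18.2 and 17.8 FPKM in the control libraries. The 4 groups did not overlap, and the Cd libraries were the highest by far. OP changed it by -4.44 with Cd and by 0.63 without, an interaction of -5.07 ± 0.082 (SE, adjusted p = 1.21e-24, edgeR). GLYMA_11G225000 on chromosome 11 had 213, 218 and 220 FPKM in the Cd+OP libraries, 2607, 2789 and 2850 FPKM in the Cd libraries, 56.2, 56.9 and 66.4 FPKM in the control+OP libraries and 30.1, 26.5 and 33 FPKM in the control libraries, in the same order of groups, with an interaction of -4.74 ± 0.082 (SE, adjusted p = 3.22e-24, edgeR). These genes resemble each other, and how reads were divided among them is uncertain. The other tested members of the list were positive in 14 and negative in 7 of 28 genes.

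GLYMA_05G065300, annotated to morphogenesis, had the same order of groups at 252 ± 0.367 FPKM in Cd+OP roots, 2839 ± 80.4 FPKM in Cd roots, 51.7 ± 7.39 FPKM in control+OP roots and 34.7 ± 3.75 FPKM in control roots (SD, n = 3 each). Its interaction was -4.15 ± 0.091 (SE, adjusted p = 3.00e-22, edgeR), and its neighbour GLYMA_05G065200 stood at -5.58 ± 0.30 (SE). Among genes of abscisic acid signalling, a hormone of water stress, 54 were positive (37.0%) and 53 negative (36.3%) of 146 tested. These shares lay near the 33.4% and 30.4% of all tested genes. GLYMA_09G040400, annotated as an abscisic acid receptor and phosphatase inhibitor, had 39, 39.5 and 38.3 FPKM in the Cd+OP libraries, 567, 591 and 528 FPKM in the Cd libraries, 19.1, 18.1 and 18.2 FPKM in the control+OP libraries and 12.1, 10.8 and 13.1 FPKM in the control libraries. The Cd libraries lay far above the other 9, and the interaction was -4.55 ± 0.076 (SE, adjusted p = 1.98e-24, edgeR). GLYMA_15G145600, with the same annotation, had an interaction of -3.01 ± 0.089 (SE). Both genes are also annotated to the defense response and the response to biotic stimulus. The most abundant gene of the list, GLYMA_04G009400, annotated to cold and water deprivation, averaged 844 ± 5.47 FPKM in Cd+OP roots, 1711 ± 55.6 FPKM in Cd roots, 509.7 ± 16.1 FPKM in control+OP roots and 727 ± 22.9 FPKM in control roots (SD, n = 3 each), and its interaction was a smaller -0.59 ± 0.043 (SE).

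Protease inhibitors, which block digestive enzymes of insects and the plant's own proteases, had both directions, and a run of neighbouring genes was mostly negative. Of 51 tested genes of 75 annotated, 26 were negative and 19 positive. Of the 51, 5 passed the filter through a single group, so these had to differ between groups and the counts are a description. In that run on chromosome 9 (GLYMA_09G162500 to GLYMA_09G163900, singled out after values were seen), 9 of 11 were negative and 2 positive. The most abundant inhibitor gene of all, GLYMA_09G163800 (chromosome 9, 38812459 to 38813412, minus strand), had 169, 173 and 171 FPKM in the Cd+OP libraries, 1058, 1069 and 1143 FPKM in the Cd libraries, 57.9, 61.9 and 65.7 FPKM in the control+OP libraries and 74.6, 63.2 and 71.7 FPKM in the control libraries. Cd libraries were highest, Cd+OP libraries came next without overlap, and control+OP and control libraries overlapped. OP changed it by -2.75 with Cd and by -0.17 without, an interaction of -2.58 ± 0.065 (SE, adjusted p = 4.72e-21, edgeR). GLYMA_16G211800 went the other way, with 67, 64.3 and 65.6 FPKM in the Cd+OP libraries, 4.19, 5.34 and 5.53 FPKM in the Cd libraries, 76.4, 76.7 and 79.6 FPKM in the control+OP libraries and 59, 64.2 and 60.2 FPKM in the control libraries. Its Cd libraries stood far below the other 9, and the interaction was 3.29 ± 0.088 (SE, adjusted p = 1.34e-20, edgeR). GLYMA_09G155500, a gene of chromosome 9 outside the run, averaged 173 ± 5.89 FPKM in Cd+OP roots, 18.2 ± 2.01 FPKM in Cd roots, 293 ± 0.603 FPKM in control+OP roots and 236 ± 4.31 FPKM in control roots (SD, n = 3 each), with an interaction of 2.86 ± 0.064 (SE). Near-identical inhibitor copies may share reads in the deposited counts.

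Phloem development genes were all positive, and the larger effect of OP was the one with Cd. Of 28 tested xylem and phloem genes, of 52 annotated, 18 were positive (64.3%) and 3 negative (10.7%), with a median of 1.57. The shares over all tested genes were 33.4% and 30.4%. All 14 tested genes annotated to phloem development were positive, between 2.27 and 4.77, while the other 14 were positive in 4, negative in 3 and not called in 7. GLYMA_10G185700 (chromosome 10, 41866596 to 41870846, minus strand), a phloem development gene, had 7.76, 8.02 and 7.03 FPKM in the Cd+OP libraries, 0.445, 0.302 and 0.338 FPKM in the Cd libraries, 10.9, 10.1 and 9.82 FPKM in the control+OP libraries and 10.4, 11.3 and 10.4 FPKM in the control libraries. Cd libraries were low, and Cd+OP libraries lay below control+OP and control libraries, which overlapped. Its interaction was 4.36 ± 0.15 (SE, adjusted p = 2.19e-18, edgeR), made of 4.30 with Cd and -0.05 without. The most abundant, GLYMA_02G000700, averaged 17.2 ± 0.75 FPKM in Cd+OP roots, 2.49 ± 0.341 FPKM in Cd roots, 33.9 ± 1.18 FPKM in control+OP roots and 39.7 ± 0.694 FPKM in control roots (SD, n = 3 each), so that it stood lower in Cd+OP than in control roots despite an interaction of 2.94 ± 0.083 (SE).

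Genes of the list for Casparian strip and suberin, parts of the endodermal barrier, were positive in 15 of 16 tested, of 26 annotated. Their median was 4.52, and the positive share was 93.8%, against 33.4% of all tested genes. The 10 tested genes with a Casparian strip term had a median of 5.17, and the 4 with a suberin term 1.53. The remaining members, among them GLYMA_02G109600 below, carry neither term. OP had a median effect of 4.13 with Cd and of -0.16 without it. As above for the nodule genes, 2 of the 16 passed the filter through a single group. GLYMA_02G109600, annotated to cell junction assembly and wall modification, had 13.2, 11.5 and 12.1 FPKM in the Cd+OP libraries, 0.784, 0.915 and 0.875 FPKM in the Cd libraries, 6.53, 4.84 and 4.6 FPKM in the control+OP libraries and 6.22, 6.23 and 5.58 FPKM in the control libraries. The Cd+OP libraries were highest and the Cd libraries lowest, with control+OP and control libraries between them. Its interaction was 3.92 ± 0.22 (SE, adjusted p = 5.33e-14, edgeR). GLYMA_02G201000, named because all 3 Cd libraries list it at 0, averaged 1.78 FPKM in Cd+OP, 1.42 FPKM in control+OP and 1.79 FPKM in control roots. With Cd roots set at 3 counts per library for it, the median of the list was still 4.52. Because 1 member alone was changed, this says nothing about the others. The negative member was the most abundant, GLYMA_12G210400, at 93.4 ± 2.96 FPKM in Cd+OP roots, 98.1 ± 1.14 FPKM in Cd roots, 108 ± 3.39 FPKM in control+OP roots and 98.3 ± 4.34 FPKM in control roots (SD, n = 3 each) and -0.28 ± 0.05 (SE).

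Aquaporins, the water channels of cell membranes, were positive in 29 (82.9%) and negative in 6 (17.1%) of 35 tested genes, with a median of 1.47. The shares over all tested genes were 33.4% and 30.4%, and no aquaporin passed the filter through 1 group only. Their median OP effect was 1.06 with Cd and -0.13 without. The most abundant, GLYMA_14G061500, had 526, 540 and 555 FPKM in the Cd+OP libraries, 311, 320 and 313 FPKM in the Cd libraries, 471, 459 and 446 FPKM in the control+OP libraries and 622, 579 and 610 FPKM in the control libraries. Cd libraries were lowest and control libraries highest, and Cd+OP libraries lay above control+OP libraries. The interaction was 1.10 ± 0.043 (SE, adjusted p = 2.52e-17, edgeR). GLYMA_13G325900 averaged 201 ± 10.1 FPKM in Cd+OP roots, 93 ± 4.32 FPKM in Cd roots, 176 ± 3.35 FPKM in control+OP roots and 390.2 ± 8.13 FPKM in control roots (SD, n = 3 each) and had an interaction of 2.18 ± 0.052 (SE), and GLYMA_08G203000 had 4.88 ± 0.14 (SE) at 14.1 ± 0.153 FPKM in Cd+OP roots, 1.2 ± 0.191 FPKM in Cd roots, 12 ± 0.975 FPKM in control+OP roots and 32 ± 1.97 FPKM in control roots. Among the 6 negative aquaporins the lowest value, picked out after the fact, was that of GLYMA_02G073700, at -1.04.

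**Figure D4:**
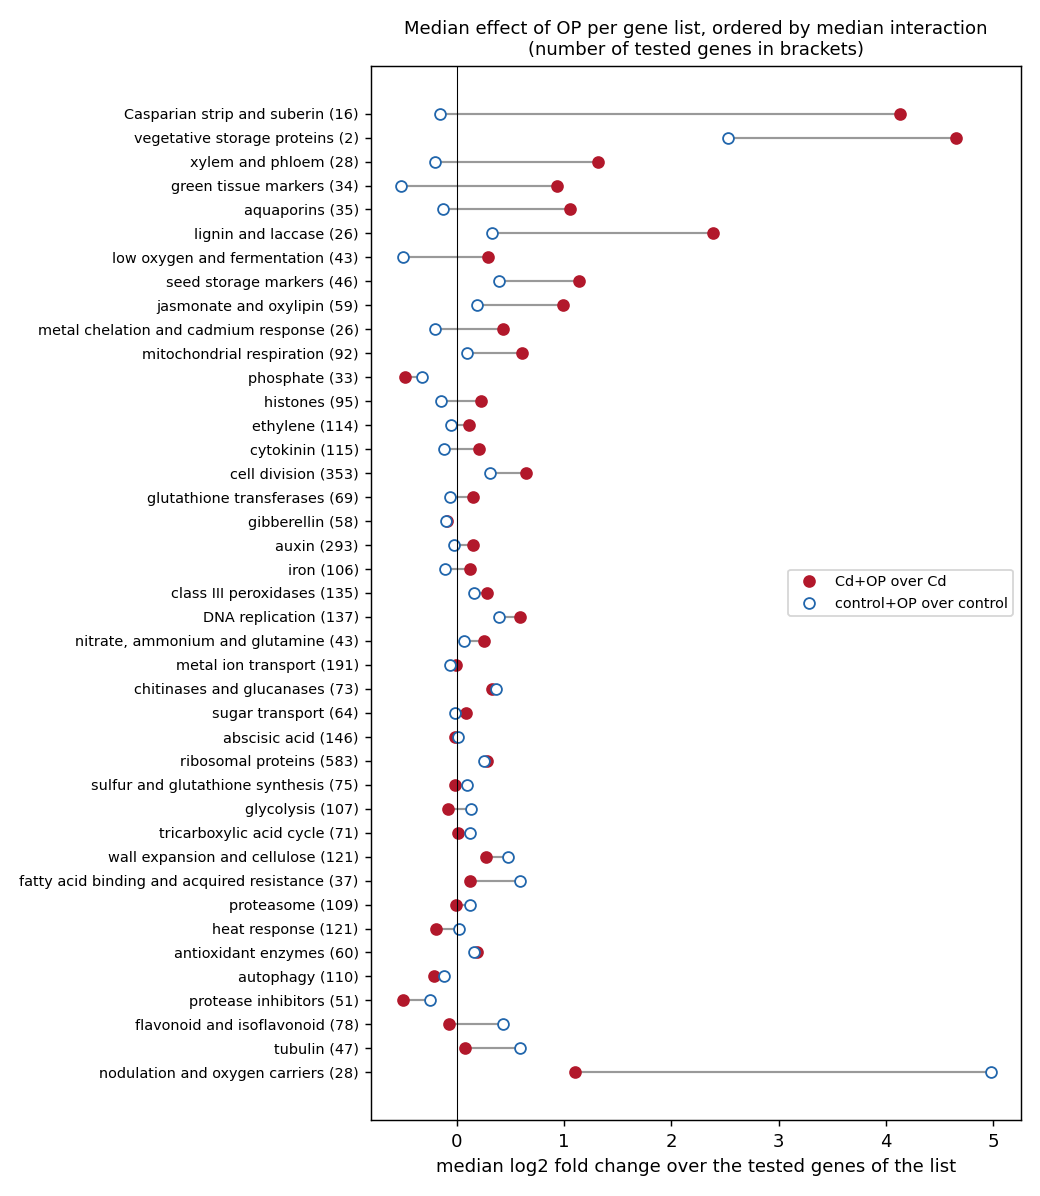
Each line is a gene list, with its number of tested genes in brackets, ordered from the highest to the lowest median interaction. Filled points are the median log2 fold change of Cd+OP over Cd and open points that of control+OP over control. The widest gaps are those of the Casparian strip and suberin list (4.13 against -0.16) and, in the other direction, of the nodulation and oxygen carrier list (1.10 against 4.98).

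Cell division genes had a positive median effect of OP in both settings, larger with Cd. Of 353 tested, 177 had a positive (50.1%) and 80 a negative interaction (22.7%), against 33.4% and 30.4% of all tested genes. The median interaction was 0.33, and the median OP effect was 0.65 with Cd and 0.31 without. The Cd libraries lay below the other 9 in 207 of the 353, and the control+OP libraries lay above the other 9 in 177. For all tested genes these shares were 26.7% and 18.2%. GLYMA_06G088800, a kinase gene annotated to the chromosome passenger complex of the mitotic spindle, had 6.96, 7.51 and 8.11 FPKM in the Cd+OP libraries, 0.158, 0 and 0.129 FPKM in the Cd libraries, 13.6, 11.7 and 11.9 FPKM in the control+OP libraries and 10, 9.39 and 9.24 FPKM in the control libraries. The Cd libraries were close to 0, and control+OP libraries were highest. Its interaction was 5.79 ± 0.30 (SE, adjusted p = 1.00e-14, edgeR), the second highest of the annotated genes with at least 5 FPKM. GLYMA_11G219600, annotated as an activator of the anaphase-promoting complex, had 4.69 ± 0.16 (SE) at 7.62 ± 0.386 FPKM in Cd+OP roots, 0.266 ± 0.0671 FPKM in Cd roots, 9.6 ± 0.766 FPKM in control+OP roots and 9.17 ± 0.226 FPKM in control roots. The cyclin-type genes GLYMA_02G277600 and GLYMA_08G291000 had 3.96 ± 0.15 and 2.61 ± 0.079 (SE).

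Tubulins, the subunits of microtubules, were mostly negative. Of 47 tested, 29 were negative (61.7%) and 9 positive (19.1%), against 30.4% and 33.4% of all tested genes. The median was -0.49, with OP effects of 0.08 with Cd and 0.59 without. GLYMA_20G136000 averaged 76.8 ± 1.29 FPKM in Cd+OP roots, 100.2 ± 1.77 FPKM in Cd roots, 124 ± 4.85 FPKM in control+OP roots and 70.9 ± 2.27 FPKM in control roots (SD, n = 3 each), with an interaction of -1.27 ± 0.045 (SE, adjusted p = 3.98e-18, edgeR). The most abundant tubulin, GLYMA_05G110200, had 0.14 ± 0.048 (SE), which turned to -0.18 on a linear FPKM scale. Histones, the proteins that package DNA, were positive in 56 and negative in 13 of 95. They included GLYMA_02G143200 at 3.04 ± 0.12 and GLYMA_20G083800 at -1.69 ± 0.07 (SE), so single histone genes differed in direction. DNA replication genes were positive in 57 and negative in 25 of 137, with a median of 0.17.

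Respiratory chain genes of the mitochondrion were positive in 63 and negative in 11 of 92 tested genes, with a median of 0.48. The Cd libraries lay below the other 9 in 68 of these genes and above them in 0. Over all tested genes these shares were 26.7% and 21.1%. GLYMA_10G277900, annotated to complex I, the first proton pump of the chain, averaged 141 ± 2.72 FPKM in Cd+OP roots, 63.8 ± 3.4 FPKM in Cd roots, 107 ± 7.55 FPKM in control+OP roots and 136 ± 3.81 FPKM in control roots (SD, n = 3 each) and had an interaction of 1.42 ± 0.068 (SE, adjusted p = 2.23e-15, edgeR). Glycolysis genes were even, with 43 positive and 43 negative of 107, and the 3 genes with the smallest p were positive. The pyruvate kinase gene GLYMA_10G201100, the last step of glycolysis, averaged 70.3 ± 1.88 FPKM in Cd+OP roots, 139.7 ± 5.22 FPKM in Cd roots, 37.5 ± 1.04 FPKM in control+OP roots and 226 ± 5.02 FPKM in control roots (SD, n = 3 each), with an interaction of 1.52 ± 0.046 (SE), and the aldolase gene GLYMA_02G222400 had 1.14 ± 0.042 (SE). The tricarboxylic acid cycle list held 23 positive and 26 negative of 71 genes, among them the malate dehydrogenase gene GLYMA_13G104800 (4.78 ± 0.28) and the aconitase gene GLYMA_12G098900 (-3.69 ± 0.14, SE).

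Genes annotated to metal chelation or the response to cadmium were mostly positive. Of 26 tested genes, of 28 annotated, 17 were positive (65.4%) and 5 negative (19.2%), with a median of 0.60. The shares over all tested genes were 33.4% and 30.4%. GLYMA_11G208700, annotated to nuclear specks, oxidative stress and the response to cadmium ion, had 133, 135 and 131 FPKM in the Cd+OP libraries, 51.1, 57.3 and 46.7 FPKM in the Cd libraries, 88, 86.2 and 80.1 FPKM in the control+OP libraries and 224, 204 and 209 FPKM in the control libraries. Control libraries were highest and Cd libraries lowest, and Cd+OP libraries lay above control+OP libraries. Its interaction was 2.61 ± 0.07 (SE, adjusted p = 1.66e-20, edgeR). GLYMA_18G045200, GLYMA_07G125600 and GLYMA_01G006000 carry the same annotation and had 2.27 ± 0.053, 3.61 ± 0.084 and 2.84 ± 0.073 (SE). Nicotianamine synthases, which make a metal chelator, differed from these. Of 3 tested, 2 were negative, GLYMA_08G175400 at -2.72 and GLYMA_15G251300 at -2.68, and 1 was not called. GLYMA_08G175400 averaged 8.63 ± 0.266 FPKM in Cd+OP roots, 20.4 ± 1.98 FPKM in Cd roots, 11.8 ± 1.2 FPKM in control+OP roots and 4.49 ± 0.932 FPKM in control roots (SD, n = 3 each). The Cd roots were highest in the first of these, and the control+OP roots in GLYMA_15G251300, at 4.43 ± 0.616 FPKM in Cd+OP roots, 4.51 ± 0.715 FPKM in Cd roots, 9.15 ± 0.334 FPKM in control+OP roots and 1.52 ± 0.232 FPKM in control roots.

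Glutathione transferases, which couple glutathione to foreign or oxidised compounds, were positive in 32 and negative in 16 of 69 tested genes, with a median of 0.24. The most abundant, GLYMA_07G140400, averaged 228 ± 3.9 FPKM in Cd+OP roots, 97.1 ± 3.61 FPKM in Cd roots, 185 ± 6 FPKM in control+OP roots and 185 ± 10.6 FPKM in control roots (SD, n = 3 each), and its interaction was 1.15 ± 0.049 (SE, adjusted p = 1.71e-16, edgeR). GLYMA_14G031000, GLYMA_20G240300 and GLYMA_10G192900 had 2.15 ± 0.061, 2.06 ± 0.067 and 1.92 ± 0.061 (SE). Metal ion transport genes were positive in 79 and negative in 50 of 191, with a median of 0.14. The zinc carrier gene GLYMA_06G052000 was negative (-2.34 ± 0.10) and GLYMA_19G184100 positive (2.23 ± 0.06, SE). Iron genes were positive in 50 and negative in 22 of 106. GLYMA_06G162300, annotated to ferric-chelate reductase and NAD(P)H oxidase activity, had 1.71 ± 0.06, and GLYMA_06G133000, annotated to transport of iron-nicotianamine, had -2.57 ± 0.086 (SE). Sulfur and glutathione synthesis genes were positive in 30 and negative in 23 of 75, and GLYMA_10G172700, annotated to cystathionine and methionine gamma-lyase activity, averaged 230 ± 8.98 FPKM in Cd+OP roots, 53.9 ± 2.6 FPKM in Cd roots, 192 ± 5.98 FPKM in control+OP roots and 179 ± 4.23 FPKM in control roots (SD, n = 3 each) with an interaction of 1.92 ± 0.052 (SE).

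Flavonoid and isoflavonoid genes, the source of soybean's root phytoalexins and nodulation signals, were negative in 46 and positive in 21 of 78 tested genes, with a median of -0.37. CHS7 (GLYMA_01G228700), a chalcone synthase at the entry of the pathway, had 375, 369 and 382 FPKM in the Cd+OP libraries, 805, 805 and 828 FPKM in the Cd libraries, 583, 556 and 582 FPKM in the control+OP libraries and 441, 425 and 428 FPKM in the control libraries. Cd libraries were highest and Cd+OP libraries lowest. Its interaction was -1.60 ± 0.041 (SE, adjusted p = 4.75e-21, edgeR). CYP73A11 (GLYMA_02G236500), a cinnamate hydroxylase upstream of it, averaged 94.5 ± 3.67 FPKM in Cd+OP roots, 386 ± 9.68 FPKM in Cd roots, 119 ± 4.79 FPKM in control+OP roots and 125 ± 1.16 FPKM in control roots (SD, n = 3 each), with an interaction of -2.04 ± 0.049 (SE). Lignin and laccase genes were positive in 15 and negative in 8 of 26, with a median of 1.42 that became -0.46 under a filter of 5 FPKM. Within it GLYMA_14G221200, annotated as a cinnamyl-alcohol dehydrogenase of lignin synthesis, had 1.94 ± 0.05, and the laccase-type gene GLYMA_18G193400 had -2.05 ± 0.066 (SE).

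Genes annotated to the heat response were negative in 50 and positive in 33 of 121 tested genes, with a median of -0.13. GLYMA_08G025700, a gene for an Hsp70-type chaperone of the endoplasmic reticulum that helps proteins fold, averaged 79.7 ± 3.38 FPKM in Cd+OP roots, 283 ± 3.66 FPKM in Cd roots, 105 ± 4.24 FPKM in control+OP roots and 76.2 ± 2.87 FPKM in control roots (SD, n = 3 each), and its interaction was -2.37 ± 0.051 (SE, adjusted p = 2.36e-22, edgeR). The most abundant, GLYMA_03G171100, also annotated as a folding chaperone, averaged 359.8 ± 4.15 FPKM in Cd+OP roots, 687 ± 5.1 FPKM in Cd roots, 448 ± 8.67 FPKM in control+OP roots and 209 ± 3.06 FPKM in control roots (SD, n = 3 each), with -2.11 ± 0.038 (SE). Proteasome genes were negative in 41 and positive in 10 of 109, and autophagy genes in 43 and 31 of 110. Their medians were -0.13 and -0.14, so the sizes were small.

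Hormone lists other than jasmonate had small median interactions, 0.36 for ethylene, 0.34 for cytokinin, 0.24 for auxin and 0.24 for gibberellin. In 29 of the 41 lists more genes were positive than negative, and positive genes were also 52.3% of all calls. Ethylene genes were positive in 63 and negative in 29 of 114, cytokinin genes in 57 and 26 of 115, auxin genes in 135 and 87 of 293, and gibberellin genes in 26 and 14 of 58. GLYMA_09G008400, an ACC oxidase gene of the last step of ethylene synthesis, had 155, 155 and 155 FPKM in the Cd+OP libraries, 39.1, 37.5 and 41.7 FPKM in the Cd libraries, 78.7, 76.5 and 75.4 FPKM in the control+OP libraries and 101, 92.1 and 87.5 FPKM in the control libraries. Cd+OP libraries were highest and Cd libraries lowest, with control+OP and control libraries between. Its interaction was 2.18 ± 0.056 (SE, adjusted p = 6.16e-21, edgeR). GLYMA_13G259400, a gibberellin 2-oxidase gene, which inactivates gibberellin, averaged 157 ± 0.954 FPKM in Cd+OP roots, 31.1 ± 1.21 FPKM in Cd roots, 131 ± 2.5 FPKM in control+OP roots and 92.7 ± 4.62 FPKM in control roots (SD, n = 3 each) and had 1.76 ± 0.049 (SE). Class III peroxidases, secreted enzymes of the wall, were positive in 64 and negative in 47 of 135, and antioxidant enzymes in 19 and 19 of 60. Wall expansion and cellulose genes were positive in 52 and negative in 53 of 121, chitinases and glucanases in 32 and 25 of 73, and sugar transporters in 28 and 23 of 64. Phosphate genes were positive in 17 and negative in 14 of 33, nitrate, ammonium and glutamine genes in 20 and 15 of 43, and ribosomal protein genes in 192 and 139 of 583. Shares were 32.9% and 23.8% for ribosomal proteins and 31.7% each way for antioxidant enzymes, beside 33.4% and 30.4% of all tested genes. In the ribosomal list the most abundant gene, GLYMA_02G049300, was not called by edgeR in the main fit (0.06, adjusted p = 3.15e-01), but some alternatives called it.

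**Figure D5:**
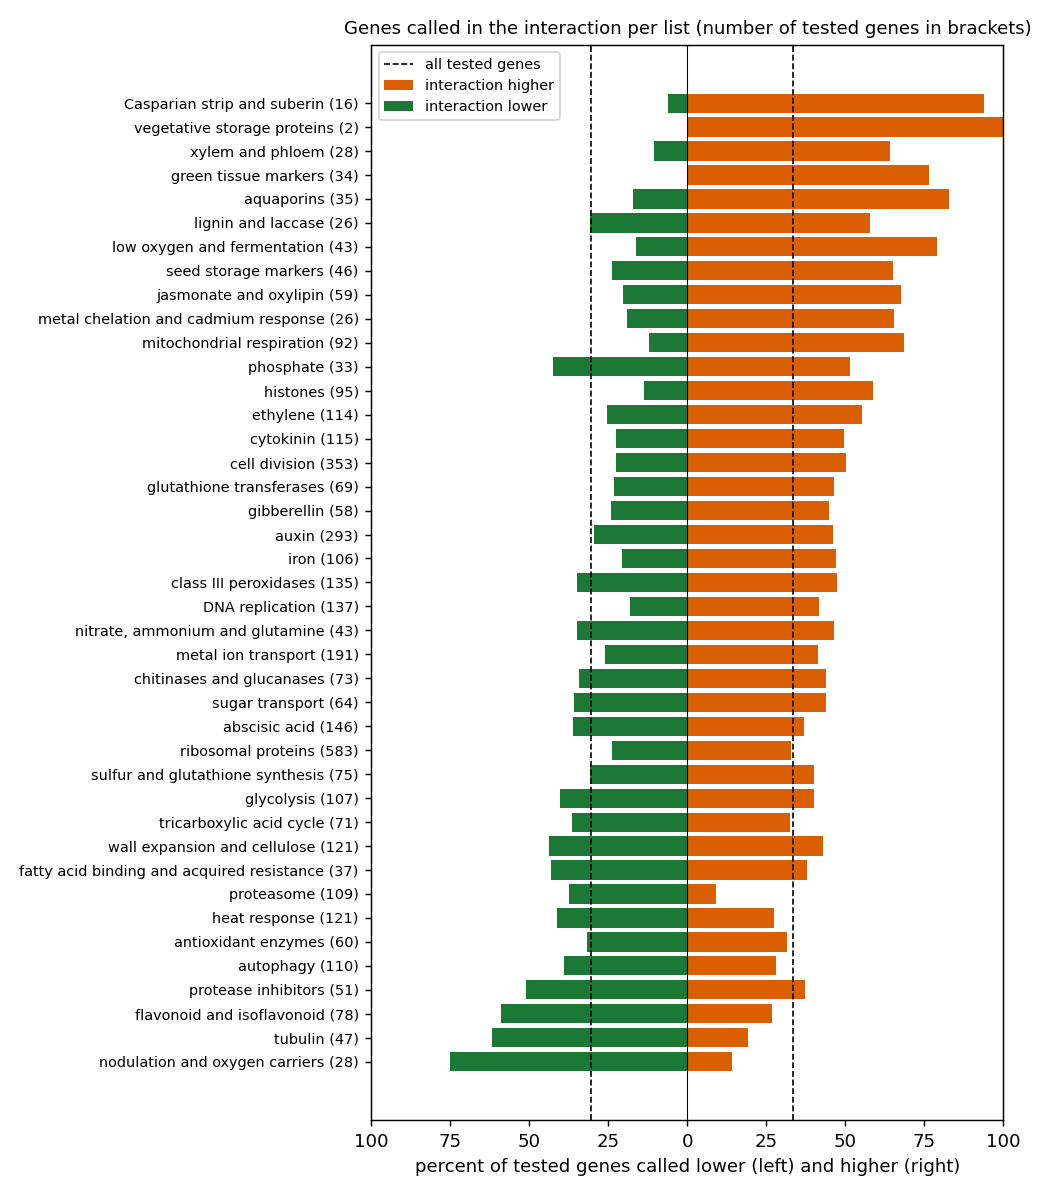
For each gene list, the bar to the right is the percent of its tested genes with a called positive interaction and the bar to the left the percent with a called negative one. Dashed lines mark 33.4% and 30.4%, the shares over all 30340 tested genes. The lists at the top exceed the line on the right, and the nodulation, tubulin and flavonoid lists at the bottom exceed the line on the left.

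Markers of other tissues moved with some results. Photosystem, antenna and ribulose-bisphosphate carboxylase genes were positive in 26 of 34 tested genes, of 143 annotated, and negative in 0. The shares over all tested genes were 33.4% and 30.4%. Of the 34, 7 passed the filter through a single group, so these had to differ between groups and the counts are a description. The summed level of the list was 164.1 to 166.7 FPKM in Cd+OP, 150.5 to 159.5 FPKM in Cd, 176.8 to 183.6 FPKM in control+OP and 323.6 to 345.3 FPKM in control libraries. The control libraries held the most. In Cd roots most of the sum came from GLYMA_13G097100, at 110.9 ± 4.17 FPKM, beside 76.9 ± 1.21 FPKM in Cd+OP roots (SD, n = 3 each). Similar sums in these 2 groups thus do not mean similar levels of the other genes. The part of the photosystem, antenna and carboxylase genes in the results was not tested. The nodulation list summed to 671.5 to 698.4 FPKM in Cd+OP, 500.1 to 516.4 FPKM in Cd, 1815.6 to 1888.1 FPKM in control+OP and 1326.6 to 1417.6 FPKM in control libraries, with no nodule named in the labels. The xylem and phloem list summed to 145.6 to 147.6, 62.4 to 67.9, 167.6 to 174.2 and 190 to 194.1 FPKM in these groups, and the Casparian strip and suberin list to 148.3 to 154.9, 102 to 105, 145.3 to 153.8 and 142.7 to 147.7 FPKM. In Cd roots most of the last sum came from GLYMA_12G210400, at 98.1 ± 1.14 FPKM (SD, n = 3). In control roots most of the nodulation sum came from GLYMA_11G121800 and SS, at 647 ± 32.5 and 472 ± 18.1 FPKM (SD, n = 3 each). The 4 leghaemoglobin genes averaged 0.164 to 1.4 FPKM in control roots, so that sum is not a nodule level.

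Some abundant genes changed in opposite directions under OP. PRP1 (GLYMA_09G092700, chromosome 9, 12673090 to 12675924, plus strand), a proline-rich structural protein of the cell wall, had 1450, 1509 and 1529 FPKM in the Cd+OP libraries, 953, 932 and 952 FPKM in the Cd libraries, 1253, 1278 and 1178 FPKM in the control+OP libraries and 1417, 1376 and 1435 FPKM in the control libraries. Cd+OP libraries were highest and Cd libraries lowest without overlap. OP raised it by 0.59 with Cd and changed it by -0.18 without, an interaction of 0.77 ± 0.045 (SE, adjusted p = 9.94e-14, edgeR). The other 2 most abundant genes raised with Cd and lowered without it were GLYMA_06G122600 and GLYMA_13G347700 above. Those lowered with Cd and raised without it were GLYMA_18G032500, GLYMA_11G225000 and GLYMA_05G065300, with OP effects with Cd of -3.93, -3.74 and -3.56 and without Cd of 0.74, 1.01 and 0.58. GLYMA_18G032500 had 206, 207 and 195 FPKM in the Cd+OP libraries, 2711, 3020 and 3082 FPKM in the Cd libraries, 58.1, 54.8 and 69.6 FPKM in the control+OP libraries and 38.8, 33 and 37.6 FPKM in the control libraries, with the Cd libraries far above the rest, and an interaction of -4.67 ± 0.089 (SE, adjusted p = 1.77e-23, edgeR).

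Among annotated genes averaging 5 FPKM or more, the 15 most negative interactions ran from -7.37 to -5.05 and the 15 most positive from 4.57 to 8.07. In 13 of the 15 most positive the Cd libraries lay below the other 9, against 26.7% of all tested genes. Among all positive genes of at least 2-fold the share was 68.3%. The 15 were picked by their interaction, which a low Cd level raises, so this shape is a description. In 13 of the 15 most negative the control+OP libraries lay above the other 9, but these 13 averaged under 5 FPKM in each other group and reached 5 FPKM through control+OP roots, so their shape and their values are a description. GLYMA_15G260700, an aspartic protease gene outside the nodulation list, averaged 0.801 ± 0.0764 FPKM in Cd+OP roots, 0.201 ± 0.255 FPKM in Cd roots, 46.5 ± 0.495 FPKM in control+OP roots and 0.25 ± 0.188 FPKM in control roots (SD, n = 3 each), and GLYMA_05G051500, a serine protease gene annotated to the response to a symbiotic fungus, had -5.56 ± 0.63 (SE). Among the most positive, all 3 Cd+OP libraries lay above the other 9 in GLYMA_10G092800, a dioxygenase gene, at 5.62 ± 0.23, GLYMA_16G134600, a methyltransferase gene, at 4.85 ± 0.25, and GLYMA_03G254300, a chitinase gene, at 5.04 ± 0.23 (SE). GLYMA_01G131100, a gene for an aspartate aminotransferase, averaged 18.6 ± 0.721 FPKM in Cd+OP roots, 2.79 ± 0.303 FPKM in Cd roots, 3.83 ± 0.374 FPKM in control+OP roots and 28.3 ± 1.07 FPKM in control roots (SD, n = 3 each) and had 5.54 ± 0.12 (SE).

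The highest value, that of GLYMA_02G028600, a metalloendopeptidase gene, rested on single libraries. It had 39.4, 0.12 and 0.1 FPKM in the Cd+OP libraries, 15.4, 0.147 and 0.153 FPKM in the Cd libraries, 0.11, 0.11 and 0.0862 FPKM in the control+OP libraries and 31.8, 0.116 and 5.03 FPKM in the control libraries. A single Cd+OP library, a single Cd library and 2 control libraries were high, and the groups overlapped. Its interaction was 8.07 ± 2.47 (SE, adjusted p = 6.32e-03, edgeR), which became 1.25 (adjusted p = 7.69e-01) without Cd+OP replicate 1 and 5.89 (adjusted p = 5.13e-02) without control replicate 1 in the same edgeR fit.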

How the data were processed

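Total RNA of Glycine max roots was sequenced in 12 libraries on an Illumina NovaSeq system, as the labels state. The authors deposited a table with FPKM values and whole-number counts per gene and library. The aligner, counting tool, build and gene models were not given in the sources used here, so coordinates are printed as the table gives them. The deposited counts pile up at multiples of 4, so they are not a plain tally of reads, and the unit taken for them is expected counts, already whole when deposited by the authors. The FPKM values, named so by the authors per the file headers and hence scaled for transcript length and library size, were used for the filter, for levels and for limma.

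All 12 libraries entered 1 fit of edgeR 4.0.16 in R 4.3.3 (glmQLFit and glmQLFTest, TMM scaling, 1 mean per group), two-sided, adjusted over 30340 genes at 0.05. The SE is the log2 value divided by the square root of F. No value column was left without a sample. Lists come from Gene Ontology, KEGG and symbol terms of the table and are described by counts and medians with no test of the list. Named genes come from the 15 highest and 15 lowest annotated called genes of at least 5 FPKM, per list the 3 with the smallest p and the most abundant, and the 3 most abundant genes with opposite OP effects each way. Other genes are said to be chosen after their values were seen, or are members of a family given as a whole. The members and lists were chosen with earlier results of these data known. Alternatives were DESeq2 1.42.0, 2 other scalings, 2 other filters, limma 3.58.1 on 3 scales, counts divided by 4, a replicate block and each library left out. The labels give no batch.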

Additional observations from a re-analysis of the deposited data

Results flagged for a closer look

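The effect of OP differed between roots with and without Cd, by the test of the interaction itself (edgeR, adjusted p under 0.05), in 19381 genes, which follows from the contrast and applies to every called gene above. The 6 abundant genes whose OP effects were called with opposite signs were GLYMA_06G122600 (1.97), GLYMA_13G347700 (3.61) and GLYMA_09G092700 (0.77), raised with Cd and lowered without, and GLYMA_18G032500 (-4.67), GLYMA_11G225000 (-4.74) and GLYMA_05G065300 (-4.15), lowered with Cd and raised without, each as an interaction on the log2 scale.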

How the results depend on the processing

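With a filter of 5 FPKM in place of 1, where fewer genes were tested, 11822 genes were called in the interaction, 6586 positive and 5236 negative, 2367 and 914 of them at least 2-fold. OP was then called for 12874 genes with Cd and 11494 without, and 1721 were lowered with Cd and raised without. With limma on log2(FPKM + 1), 1402 genes were negative by at least 2-fold, since a pseudocount shrinks low genes. Other alternatives kept these counts within 1.5 times. With each library left out in turn, 18556 to 18876 genes were called, 9785 to 10628 positive and 8076 to 8981 negative, at least 2-fold 4825 to 5150 and 2099 to 2398. OP was called for 20569 to 21562 genes with Cd and 17135 to 18762 without, opposite effects numbered 2076 to 2442 and 2215 to 2700, and 29 to 32 of 41 lists had more positive than negative genes (29 with all libraries). Of the 19381 called genes, 85.8% (linear FPKM) to 99.2% (counts divided by 4, and median-of-ratios scaling) kept call and sign under the alternatives that tested the same genes. On the linear scale 283 had the opposite sign and a call. List medians changed sign for phosphate (-0.34 with no filter, -0.18 at 5 FPKM), wall expansion (0.20 with no filter), glycolysis (0.11 at 5 FPKM), lignin (-0.46 at 5 FPKM) and sulfur (0.11 at 5 FPKM, 0.08 with limma on log2(FPKM + 0.1), and from -0.06 to 0.14 with libraries left out, 0.07 to 0.14 in the 6 fits that reversed). On linear FPKM the interaction reversed for GLYMA_03G132700 (-1.83), GLYMA_05G110200 (-0.18) and VSPA (-0.90), and the cause was not tested. Of 172 named genes, calls were lost for VSPA, GLYMA_02G028600, GLYMA_05G020600 and GLYMA_17G255600 under 1 or more alternatives. A call was gained for GLYMA_02G049300 in edgeR with library size alone (0.12, adjusted p = 3.55e-02) and at 5 FPKM (0.12, adjusted p = 2.75e-02). It was also gained without Cd replicate 2 (0.12) and without control replicate 2 (0.13). The median over all genes was 0.01 and at most 0.08 under any setting. The replicate number as a block gave 19309 called genes and changed no named call, and same-numbered libraries deviated together at -0.022 to 0.056 (18 correlations, 0 above 0.1), so the numbers are not read as a pairing. Depth limits genes near 0 in Cd roots, among them most Casparian strip genes.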
